A study of Mus musculus with 11 samples.

Results

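The genes described here are 36 genes of DNA replication, out of 21887 protein-coding genes in RefSeq (GRCm38.p6, the same build as mm10). They were listed by name. They comprise the 6 subunits of the origin recognition complex (Orc1 to Orc6), the loading factors Cdc6 and Cdt1 with the Cdt1 inhibitor Gmnn, the 6 subunits of the MCM2-7 helicase, and Cdc45, the 4 GINS subunits and Mcm10. The clamp Pcna with the 5 clamp loader subunits Rfc1 to Rfc5, the polymerase and primase subunits Pola2, Prim1, Prim2, Pold1 and Pole, the flap nuclease Fen1, the ligase Lig1 and the ribonucleotide reductase subunits Rrm1 and Rrm2 complete the list. All 36 were found by symbol. A gene was counted for a factor when a deposited peak lay within 5 kb, or within 50 kb, of its span, and for a histone mark when a deposited segment covered the first or last base of the span.

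The study profiled chromatin of 8946, a mouse T-cell leukaemia line, by chromatin immunoprecipitation and sequencing, in 11 samples of 1 library each. Cells had received retroviruses for a tagged Zmiz1 with an NGFR marker and for an activated Notch1 with a GFP marker, and cells positive for both markers had been sorted. The line labelled Flag-Zmiz1/ L1601PDP, the Flag line here, gave an input, precipitations of Flag-Zmiz1, Rbpj and ICN1, and 4 histone libraries labelled H3K4me3, H3K4me1, H3K27ac and H3K27me3. The line labelled HA-Zmiz1/ DEGFDLNRDP, the HA line, gave an input, ICN1 and HA-Zmiz1. All groups thus carried both an introduced Zmiz1 and an introduced activated Notch1, all came from 1 parent line, and no group lacked either. ICN1 is the active intracellular part of Notch1, Rbpj is its partner that binds DNA, and Zmiz1 is a PIAS-like coactivator. With 1 library per target and line there was no spread between replicates, so no difference below has a test, and the intervals given cover counting error only.

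Replication begins with licensing, in which the origin recognition complex, Cdc6 and Cdt1 load the MCM2-7 ring onto DNA in G1 phase. In S phase Cdc45 and GINS join the ring to make the active helicase, primase and the polymerases copy the strands, and the clamp loader places the Pcna clamp that holds the polymerases on their template. Many of these genes are transcribed as cells enter S phase, and E2F factors are their best known regulators. In T-cell leukaemia, activated Notch1 is known as a driver of growth.

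The 5 factor libraries held 13.5 to 19.0 M filtered tags and differed widely in the number of peaks, with 581 for Flag-Zmiz1, 4984 for HA-Zmiz1, 82 and 414 for ICN1 in the Flag and HA lines, and 20993 for Rbpj. In the Flag line, 53 of the 82 ICN1 peaks lay where the input background was 10 or more times its mean. None of the Rbpj or HA-Zmiz1 peaks near a replication gene did. The data went against the labels of the H3K27 libraries. The library labelled H3K27me3 had a segment over an end of 9 of 10 housekeeping genes and of 0 of 10 developmental regulators, and the library labelled H3K27ac had one over 0 of 10 and 9 of 10. They are therefore called the library labelled H3K27me3, whose placement is that of an active mark, and the library labelled H3K27ac, whose placement is that of a Polycomb mark. T-cell identity was checked with the same segments. All 10 T-cell markers had H3K4me3 and the library labelled H3K27me3 together over an end, against 0 of 5 B-cell and 1 of 5 myeloid markers.

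The promoter sequences show what the start sites of these genes have in common before any peak is considered. A RefSeq table gave windows from 250 bases before to 50 after the start for 28 of the 36 genes, in 35 windows. E2F sequences were searched on both strands (TTTCCCGC, TTTGGCGC, TTTCGCGC and TTTGCCGC), with CCAAT for the CCAAT box and TGGGAA for the Rbpj core. The first 4 sequences below had an Rbpj peak in the promoter window (Pcna, Gins3, Rfc3 and Mcm10). In the others no Rbpj peak lay in the window, and Mcm3, Mcm6 and Orc6 had none within 5 kb. Each is the stretch before the gene span, at most 200 bases, 5′ to 3′ on the strand of the gene, from RefSeq, GRCm38.p6. Capitals mark E2F, CCAAT and TGGGAA letters on either strand.
Pcna, chr2:132253181-132253337, minus strand: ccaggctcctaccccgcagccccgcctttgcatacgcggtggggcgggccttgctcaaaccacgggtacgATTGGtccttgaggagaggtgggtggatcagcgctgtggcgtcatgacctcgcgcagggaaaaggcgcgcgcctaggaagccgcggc
Gins3, chr8:95633359-95633558, plus strand: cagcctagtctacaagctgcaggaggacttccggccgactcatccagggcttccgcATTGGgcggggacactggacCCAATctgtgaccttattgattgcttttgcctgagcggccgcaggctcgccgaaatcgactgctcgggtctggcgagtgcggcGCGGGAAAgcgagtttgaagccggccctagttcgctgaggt
Rfc3, chr5:151651209-151651408, minus strand: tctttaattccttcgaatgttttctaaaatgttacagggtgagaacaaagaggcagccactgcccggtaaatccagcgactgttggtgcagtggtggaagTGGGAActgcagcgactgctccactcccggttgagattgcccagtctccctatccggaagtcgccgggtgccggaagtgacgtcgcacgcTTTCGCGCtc
Mcm10, chr2:5012792-5012991, minus strand: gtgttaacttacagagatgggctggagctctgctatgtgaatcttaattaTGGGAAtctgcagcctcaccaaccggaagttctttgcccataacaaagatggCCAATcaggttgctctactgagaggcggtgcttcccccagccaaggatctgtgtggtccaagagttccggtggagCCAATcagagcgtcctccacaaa
Mcm3, chr1:20820313-20820512, minus strand: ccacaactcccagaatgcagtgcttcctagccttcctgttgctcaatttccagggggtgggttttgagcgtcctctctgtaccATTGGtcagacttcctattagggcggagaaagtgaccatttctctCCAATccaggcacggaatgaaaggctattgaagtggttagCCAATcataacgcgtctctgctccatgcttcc
Mcm6, chr1:128359706-128359905, minus strand: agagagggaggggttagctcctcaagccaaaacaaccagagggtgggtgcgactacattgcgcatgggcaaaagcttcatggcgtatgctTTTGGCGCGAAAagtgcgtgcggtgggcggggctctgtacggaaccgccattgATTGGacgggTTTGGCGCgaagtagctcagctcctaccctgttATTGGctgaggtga
Orc6, chr8:85299518-85299631, plus strand: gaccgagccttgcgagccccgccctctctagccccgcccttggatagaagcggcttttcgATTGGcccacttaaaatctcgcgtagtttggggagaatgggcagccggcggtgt
Mcm5, chr8:75109268-75109467, plus strand: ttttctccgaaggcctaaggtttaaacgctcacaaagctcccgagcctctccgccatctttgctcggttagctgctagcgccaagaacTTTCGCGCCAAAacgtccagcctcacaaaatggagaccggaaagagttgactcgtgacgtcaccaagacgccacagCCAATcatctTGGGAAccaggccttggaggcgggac

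E2F letters were the commonest feature relative to other promoters. They were present in 12 of the 35 windows (34.3%), against 2.85% of 21263 windows of all coding genes and 4.55% of the 10291 windows whose start lay in an H3K4me3 segment. The 12 genes were Orc1, Orc3, Cdc6, Cdt1, Mcm3, Mcm5, Mcm6, Mcm7, Gins3, Rfc3, Pold1 and Lig1. Of these, 8 are licensing genes, but licensing genes are a large part of the list. They comprise 6 origin recognition, 3 loading or inhibitor and 6 MCM genes of the 36. Whether E2F letters were commoner among them was not tested. In Mcm6 and Mcm5 the capitals TTTGGCGCGAAA and TTTCGCGCCAAA each join an E2F match on 1 strand with an overlapping match on the other. In Mcm3 the matches began 19 and 38 bases after the start and are outside the printed stretch. CCAAT was in 20 windows (57.1%, against 38.5% of windows with H3K4me3), and TGGGAA in 14 (40%, against 22.1%). The Ets sequence CCGGAAG was in 28.6% against 20.7%, the Sp1 sequence GGGCGG in 68.6% against 68.3%, and the NRF1 palindrome in 0 windows against 2.46%. The bars of motif letters show E2F as the widest gap and Sp1 as equal once the comparison is with H3K4me3 promoters.

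**Figure D1:**
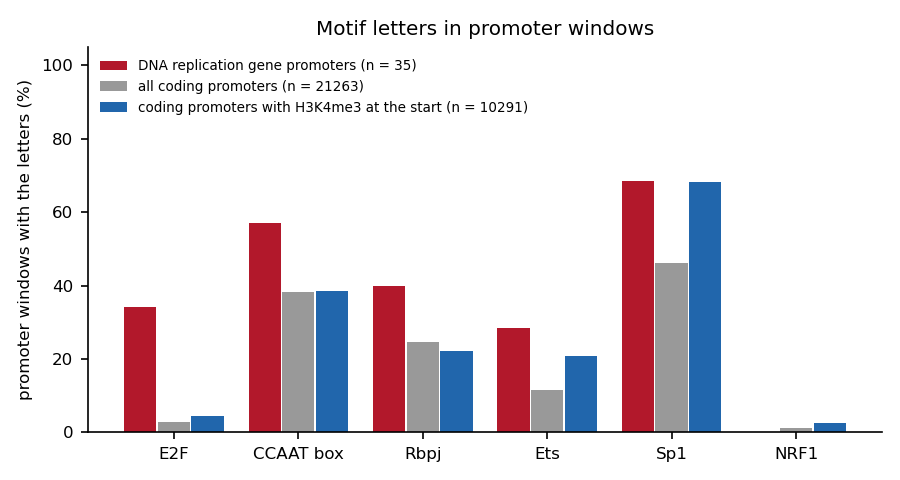
Percentage of 300-base promoter windows (y axis) that hold the letters of each motif on either strand (x axis), for 35 windows of DNA replication genes (red), all 21263 coding windows (grey) and 10291 windows with H3K4me3 at the start (blue). E2F letters were in 34.3% of the red windows and 4.55% of the blue ones.

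TGGGAA did not follow the Rbpj peaks. Of the 20 windows with an Rbpj peak, 7 held it (35%), and of the 15 without a peak, 7 did (46.7%). Over all coding windows the shares were 22.8% with a peak and 25.3% without. Pcna, which had the highest Rbpj fold of the list, held no TGGGAA in its window. Mcm5, whose fold was the lowest, held it 67 bases before the start, but its Rbpj peak lay outside the window.

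Rbpj was the factor found at most replication genes. A peak lay within 5 kb of 30 of the 36 genes (83.3%), against 48.7% of all coding genes. Of the 10192 coding genes with H3K4me3 over an end, 84.5% had one, so the members' share was that of genes with H3K4me3. Within 50 kb the count was 34 of 36, against 67.2% and 95.1%. The best fold over input within 5 kb had a median of 7.36 and ran from 3.89 to 14.7, and its median over all coding genes with a peak was 7.78. HA-Zmiz1 had a peak within 5 kb of 7 genes (19.4%), against 12.1% of all and 20.8% of H3K4me3 genes, and within 50 kb of 12, against 27.8% and 41.8%. All 7 also had Rbpj within 5 kb, as did 2526 of the 2650 coding genes with HA-Zmiz1 within 5 kb. Both were thus found at 19.4% of the members and 11.5% of all coding genes. Flag-Zmiz1 had none within 5 kb, against 1.36% of all and 1.29% of H3K4me3 genes, and 1 gene within 50 kb, against 4.06% and 4.43%. ICN1 had none within 5 or 50 kb in either line. Its shares over all coding genes were 0.0822% and 0.215% in the Flag line and 1.21% and 3.42% in the HA line, and over H3K4me3 genes 0.147% and 0.294%, and 2.07% and 5.3%. With so few ICN1 and Flag-Zmiz1 peaks, a count of 0 among 36 genes is near those shares, and an unlisted site may lie under the caller's threshold.

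**Figure D2:**
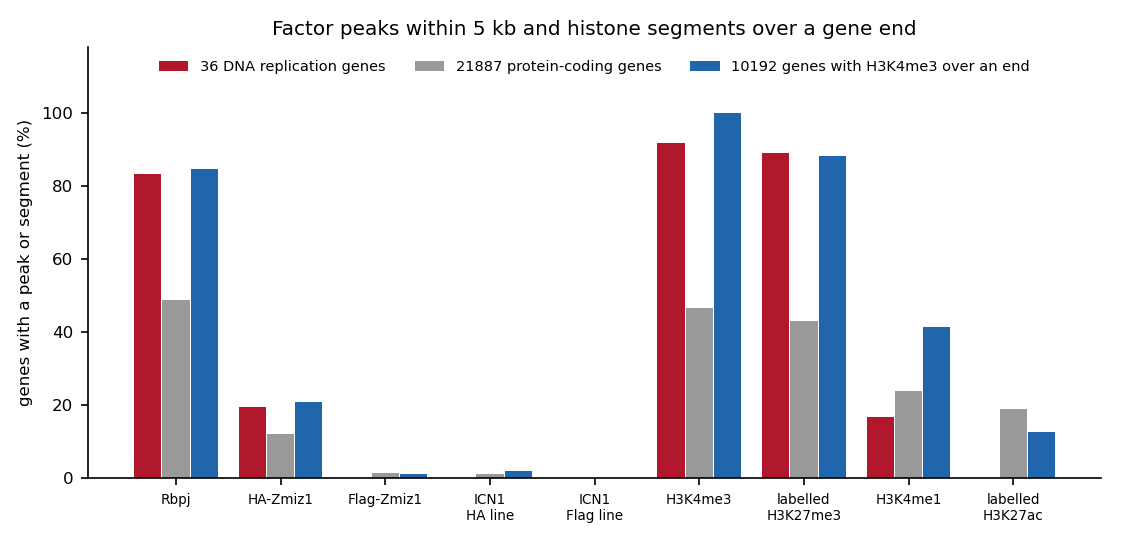
Percentage of genes (y axis) with a factor peak within 5 kb or a histone segment over a gene end (x axis), for the 36 DNA replication genes (red), all coding genes (grey) and coding genes with H3K4me3 over an end (blue, 100 by definition for H3K4me3). The red and blue bars are close for Rbpj (83.3 and 84.5) and HA-Zmiz1 (19.4 and 20.8) and apart for H3K4me1.

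Among the licensing genes, Rbpj peaks lay within 5 kb of Orc1, Orc2, Orc4 and Orc5, of Cdc6, Cdt1 and Gmnn, and of 4 of the 6 MCM subunits. Orc4 had a best fold of 10.3 and Cdt1 of 10.2, from pileups of 20 and 21 tags. The Orc4 peak lay 157 bp before a listed start and the Cdt1 peak 615 bp before it. Cdt1 had 5 peaks within 5 kb, the most of any member, of which the one furthest from it was nearest to Aprt. Gmnn, the geminin gene, had 3 peaks of fold 5.84 to 7.00. Orc3 and Orc6 had none within 5 kb. The nearest peak to Orc3 lay at 5.55 kb and that to Orc6 at 125 kb.

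The MCM subunits, which make up a single ring, had unlike Rbpj peaks. Mcm7 had a best fold of 13.2 (pileup 26, 95% interval 17.0 to 38.1), but that peak lay 3.45 kb from its span, in Cops6. The peak at the Mcm7 start, shared with Ap4m1, had a fold of 6.84. Mcm4 had 3 peaks of fold 6.22, 9.49 and 8.92, of which the higher 2 were nearest to Prkdc, the adjacent gene. Mcm2 had folds of 8.67 within the gene and 7.82 nearest to Tpra1. Mcm5 had 1 peak of fold 3.89 (pileup 9, interval 4.12 to 17.1), the lowest best fold of the list, 831 bp before its start. Mcm6 had its nearest peak at 9.15 kb and Mcm3 at 259 kb, the furthest of any member. Thus the counts at Mcm2, Mcm4 and Mcm7 rest partly on peaks nearest to another gene, and Mcm3 and Mcm6 had none.

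All 6 genes of the firing step had an Rbpj peak within 5 kb. Gins1 was highest at 12.2 (pileup 24, interval 15.4 to 35.7), and Gins3, Gins2, Gins4 and Cdc45 followed at 7.74, 7.39, 6.79 and 6.62. Mcm10, which helps to activate the helicase, was lowest at 5.06. The Cdc45 peak of fold 6.62 was nearest to Ufd1, its neighbour. Another, of fold 5.83, touched both Cdc45 and Ufd1.

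At the fork, Pcna had the highest fold of the list, 14.7 (pileup 29, interval 19.4 to 41.6), at chr2:132253176-132253499 with its summit 183 bp before the start, touching both Pcna and its neighbour Cds2. Rfc2 had 10.3, Rfc1 7.89, Rfc4 7.00, Rfc3 5.50 and Rfc5 4.20. The Pcna and Rfc5 pileup intervals (19.4 to 41.6 and 6.20 to 21.0 tags) overlap only at their edges. Prim2, the large primase subunit, had the next highest fold after Pcna, 13.8 (pileup 32, interval 21.9 to 45.2), inside its 216 kb span. Its peak at the end of the span that H3K4me3 covered had a fold of 3.88. Pola2 and Pold1 had 6.68 and 6.36, Lig1 7.33, Fen1 5.11, Rrm1 7.44 and Rrm2 6.68. Pole and Prim1 had none within 5 kb, with their nearest at 11.9 and 5.44 kb.

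**Figure D3:**
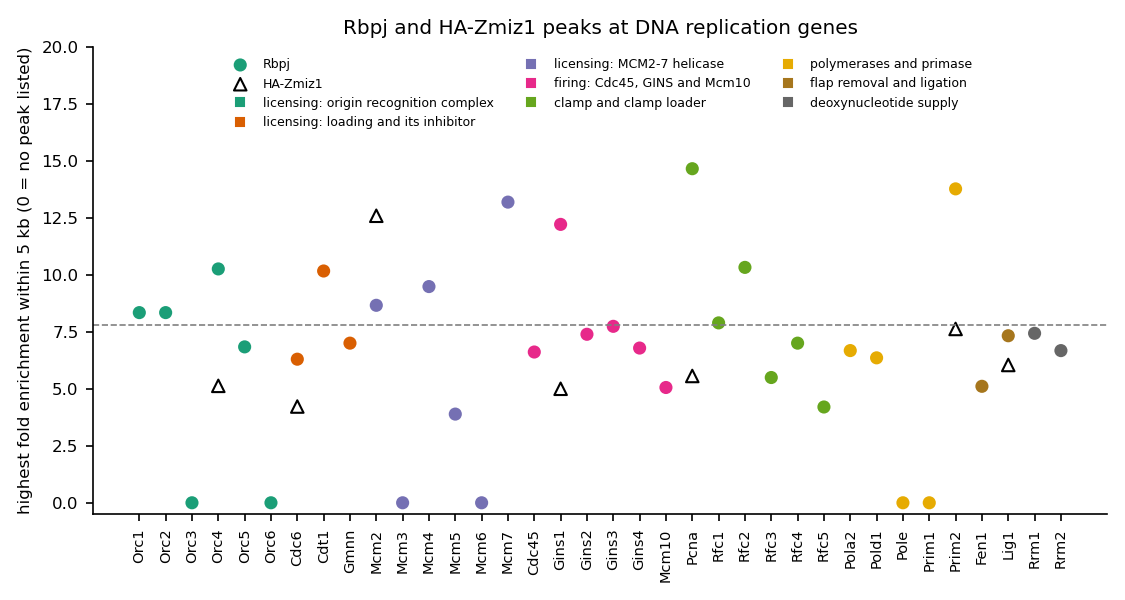
Highest fold over local input (y axis) among peaks within 5 kb of each gene (x axis), as coloured circles by role for Rbpj and open triangles for HA-Zmiz1. Genes at 0 have no Rbpj peak listed, and the dashed line is the Rbpj median over all coding genes with a peak (7.78).

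The Rbpj peaks of these genes lay mostly near starts. For the 23 genes with a listed start and a peak within 5 kb, the summit of the most significant peak lay a median of 179 bp from the start. It lay within 250 bp for 13 of them (56.5%), against 49.4% of 8603 coding genes, whose median was 260 bp. Of the 60 separate Rbpj peaks within 5 kb of a member, 58 lay in an H3K4me3 segment (96.7%), against 87.3% of the whole Rbpj list. Likewise 58 lay in a segment of the library labelled H3K27me3, against 86.2% of the list. In all, 15 lay in an H3K4me1 segment (25.0%), against 57.8% of the whole Rbpj list, and 8 overlapped an HA-Zmiz1 peak (13.3%), against 16.9% of the list. The whole list holds peaks at any distance from a gene, so these sets are unlike. Within 50 kb of a member the H3K4me1 share was 40.4%. Shares among Rbpj peaks within 5 kb of any coding gene were not taken, so whether the differences are particular to the members was not tested.

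HA-Zmiz1 peaks at replication genes lay either beside the start or deep inside the gene. Beside the start or span, Pcna had a peak of fold 5.56 (pileup 8, 95% interval 3.45 to 15.8) 232 bp before the start. That peak was nearer to the neighbour Cds2 than to Pcna. Orc4 had a peak of 5.13 at 125 bp before a start, Gins1 of a like fold at 61 bp from the span, and Cdc6 had 2 peaks of 4.21 and 4.22. These 4 genes all had an Rbpj peak under an HA-Zmiz1 peak. None of these 5 HA-Zmiz1 peaks exceeded the list's median fold of 6.53.

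Inside genes the folds ran from 5.16 to 12.6, on both sides of that median. Mcm2 had the strongest, at chr6:88886483-88886759 with a fold of 12.6, a pileup of 26 (interval 17.0 to 38.1) and a −log10 p of 26.9, rank 169 of 4984. Its summit was 12145 bp into the gene, 3.16 kb from the other end. An Rbpj peak of fold 8.67 overlapped it, and an H3K4me1 segment covered it. Prim2 had 4 intragenic HA-Zmiz1 peaks of fold 7.08, 6.29, 7.63 and 5.16, all in H3K4me1 and 75.7 to 106 kb from the nearer end. The last 2 overlapped the Rbpj peaks of fold 12.6 and 13.8, so the strongest Rbpj site of Prim2 was one of its Zmiz1 sites and not its promoter. Lig1 had 1 intragenic peak of fold 6.05, in H3K4me1 and over an Rbpj peak of 6.01. These intragenic peaks were not in H3K4me1 alone. All 11 HA-Zmiz1 peaks within 5 kb of a member lay in H3K4me3 and in the library labelled H3K27me3. The whole HA-Zmiz1 list had 93.2% and 93.6% in those 2 libraries. Neither the exon structure nor the target of these sites was examined.

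The genes with HA-Zmiz1 only beyond 5 kb were Cdt1, Cdc45, Gins2, Rfc4 and Rfc5, and in each the nearest coding gene was another. The best folds were 8.40 at Cdt1 (nearest gene Piezo1), 7.59 at Gins2 (Gse1), 7.26 at Rfc4 (Adipoq), 5.18 at Cdc45 (Cldn5) and 4.66 at Rfc5 (Wsb2). A second Mcm2 peak, 10.4 kb away with a fold of 6.65, lay in Podxl2 and in segments of all 4 histone libraries. Of the 19 separate HA-Zmiz1 peaks within 50 kb, 10 had a member as the nearest gene. Of the same 19, 13 overlapped an Rbpj peak (68.4%), against 71.3% of the whole list, and 15 lay in H3K4me1 (78.9%), against 82.8%. These overlaps join libraries of different lines. The 1 Flag-Zmiz1 peak within 50 kb, of fold 5.40, was 30.5 kb from Gins4 and inside Gpat4.

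The nearest ICN1 peak to any member was 84.8 kb from Mcm6 in both lines. It had a fold of 8.17 in the HA line and 4.83 in the Flag line, and the 2 peaks lay within the same HA-Zmiz1 peak of fold 13.9. For the HA line the median distance from a member to the nearest ICN1 peak was 1222 kb. For HA-Zmiz1 the median was 92.7 kb. The 2 lists differ in size, with 414 ICN1 and 4984 HA-Zmiz1 peaks, and distances were not taken over other coding genes. Whether either distance is particular to the members was not tested.

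The ends of the replication genes carried the active marks and not the Polycomb-placed one. H3K4me3 covered an end of 33 of 36 genes (46.6% of all coding genes), the library labelled H3K27me3 32 (43.1%), and both together 31 (41%). Of coding genes with H3K4me3, 88.1% also had the library labelled H3K27me3, and of the 33 replication genes with H3K4me3, 31 did. The library labelled H3K27ac covered 0, against 18.9% of all and 12.7% of H3K4me3 genes. The exceptions for H3K4me3 were Orc1, Orc4 and Rfc1, for which the listed starts lie inside the span. Over those starts they had segments of fold 23.1, 16.9 and 12.8. With starts in place of span ends, H3K4me3 covered 28 of 28, against 49.6% of all, and the library labelled H3K27me3 27, against 44.9%. The library labelled H3K27me3 covered no end of Orc1, Rfc1, Pold1 or Lig1, and covered the start of Orc1, Rfc1 and Lig1, with folds of 6.97, 3.08 and 6.14.

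H3K4me3 fold over control had a median of 16.3 over the 33 genes, against 14.7 for all coding genes with a segment. The highest were Prim2 at 25.1 (1245 reads against 76, 95% interval 19.9 to 32.1), Pcna at 25.1 (2272 against 139, 21.1 to 30.0) and Mcm5 at 24.2 (1391 against 88). The lowest was Mcm2 at 11.5 (829 against 111, 9.39 to 14.1), and its interval lies below those of Prim2 and Pcna. The 4 GINS genes, Gins1 to Gins4, were at 15.2, 13.3, 14.4 and 12.8, and Cdc45 in the same step was at 22.3 (18.3 to 27.4), with an interval that overlaps that of Gins1 (12.0 to 19.6). The widest segment was that of Rrm2, 8.0 kb with 2522 reads, against a median of 3.6 kb over members and 3.2 kb over all. Mcm5 thus had among the highest H3K4me3 and the lowest Rbpj fold, whereas Pcna was highest or nearly so in both.

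The library labelled H3K27me3 had a median fold of 5.64, against 4.34 for all coding genes with a segment. Orc5 was highest at 8.70, then Mcm5 at 7.88, Rrm2 at 7.80, Fen1 at 7.43 and Cdc45 at 7.41. Gins3 was lowest at 3.44, with Mcm3 at 3.53 and Cdc6 at 3.56. Pcna, at 4.47, had the widest segment, 12.4 kb against a median of 3.7 kb. The order of genes by fold in this library therefore differed from that in H3K4me3. For Pcna the fold was taken over 12.4 kb here and over 5.4 kb in H3K4me3. By reads over an end, Pcna (924 here, 2272 in H3K4me3) came next after Rrm2 (1048 and 2522) in both libraries.

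**Figure D4:**
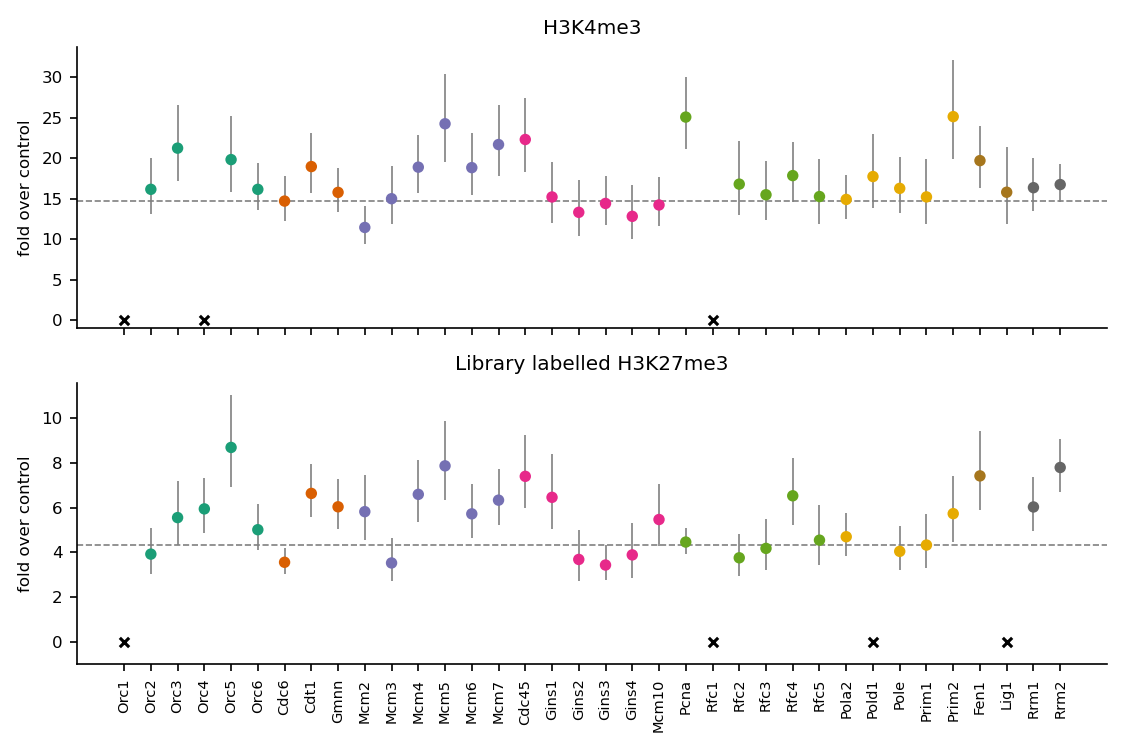
Fold over control (y axis) of the H3K4me3 segment (top) and the segment of the library labelled H3K27me3 (bottom) over an end of each gene (x axis), coloured by role as in the plot of peak folds. Bars are 95% counting intervals, crosses are genes with no segment over an end of the span, and dashed lines are the medians over all coding genes with one. H3K4me3 values lie between 11.5 for Mcm2 and 25.1 for Prim2.

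H3K4me1 stood beside the starts and rarely over them. It covered an end of 6 genes (Orc4, Pcna, Rfc4, Prim1, Fen1 and Rrm2), or 16.7%, against 23.8% of all coding genes and 41.5% of those with H3K4me3. These counts take either end of the span. At Pcna, Rfc4, Fen1 and Rrm2 the covered end was the one away from the start. Within 1 kb of an end it was found at 35 of 36, against 49.6% and 91%. Lig1 alone had none within 1 kb. Genes with it within 1 kb but over neither end were 29 of 36, against 25.8% of all and 49.5% of H3K4me3 genes. The other replication genes and the E2F and Rb regulators, counted below, had it so at 69.4% and 60%, so this was not particular to the members. Over any listed start it was found at Prim1 and Orc2, 2 of 28 genes, against 16.3% of all. With 1 start per gene, as charted in the map around the starts, it covered Prim1 alone. At the 27 other charted starts the nearest segment began a median of 0.615 kb upstream and 0.747 kb downstream, and 22 of the 27 had a segment within 2 kb on both sides. These distances and this count were not taken over other coding genes, so whether they are particular to the members was not tested. Mcm5, Orc2, Pold1, Rfc5 and Lig1 lacked an upstream segment within 2 kb. The map shows the gap between the H3K4me1 segments, with most Rbpj peaks inside it and H3K4me3 across it.

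**Figure D5:**
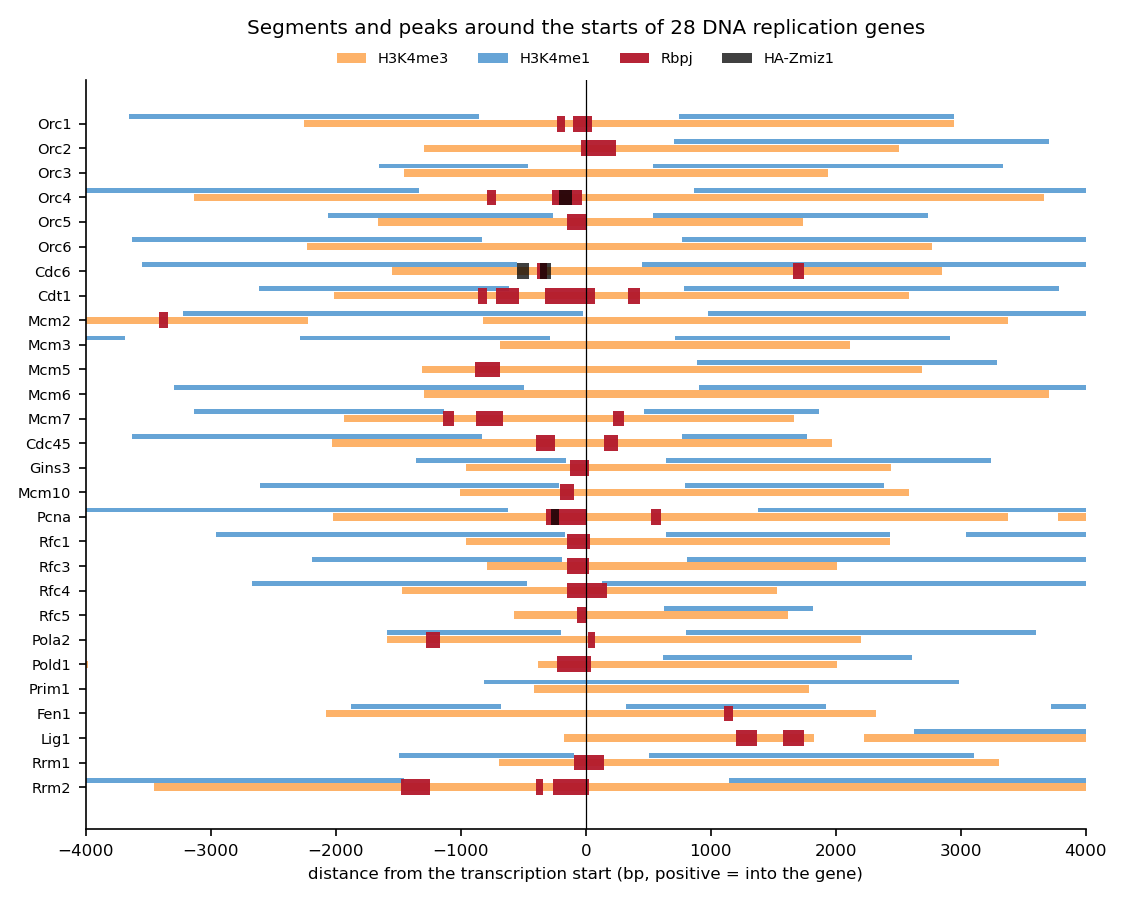
Segments of H3K4me3 (orange) and H3K4me1 (blue), and peaks of Rbpj (red) and HA-Zmiz1 (black), by distance from the transcription start in bp (x axis) at 28 replication genes with a listed start (y axis, one start each). H3K4me1 lies to both sides within 2 kb at 22 of the 27 starts it does not cover, a count not made for other coding genes.

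The other genes of the pathway were counted in the same way. Of 36 further replication genes, such as polymerase and Rpa subunits, kinases of firing and chromatin assembly factors, 33 had an Rbpj peak within 5 kb, 10 an HA-Zmiz1 peak and 1 an ICN1 peak of the HA line. Within 50 kb, 17 of them had HA-Zmiz1 (47.2%), against 12 of the 36 genes described above and 27.8% of all coding genes. Flag-Zmiz1 lay within 50 kb of 6 (16.7%), against 1 and 4.06%, and ICN1 of the HA line within 50 kb of 3 (8.33%), against 0 and 3.42%. All 36 had H3K4me3 and all 36 the library labelled H3K27me3 over an end, and 0 the library labelled H3K27ac. Of 15 E2F and Rb regulators, 15 had Rbpj within 5 kb, 3 had HA-Zmiz1 and 0 had ICN1. H3K4me1 covered an end of 9 of the 36 further replication genes (25%) and of 6 of the 15 regulators (40%). It lay within 1 kb of an end but over neither at 25 (69.4%) and 9 (60%). Dut, the dUTPase that keeps uracil out of DNA, had 5 HA-Zmiz1 peaks within 5 kb. The strongest, at chr2:125253670-125254035 with a fold of 12.4, held an ICN1 peak of 6.53 and an Rbpj peak of 10.5. E2f2 had 5 HA-Zmiz1 peaks with a best fold of 16.3, above the 12.6 of Mcm2. Rpa1, a subunit of the single-strand binding protein, had a best fold of 8.95, the chromatin assembly subunit Chaf1a 8.91 (nearest gene Sh3gl1), the Rb relative Rbl2 8.04 and the polymerase subunit Pold3 7.29. By comparison 9 of the 10 T-cell markers had an HA-Zmiz1 peak within 5 kb.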

How the data were processed

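Peaks of the factor libraries were called with MACS 2.0.10.20120913 at p 1e-05, with each line's own input as control, per the file headers. Those of the HA line mention pooling. The submitters' processing notes name Bowtie 0.12.7, SICER 1.1 and mm10. Each peak carries the authors' pileup signal, fold enrichment over local input (a ratio) and −log10 p. Each histone segment carries deposited read counts, a fold (ratio) over a control that is not named in the sources used here, and deposited p-values. These values were used within a list only.

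Peaks and segments were joined to RefSeq gene spans with Python 3.11.15 and pandas 2.3.3, with overlap of at least 1 bp. The joining was tested on simulated data. A count over the listed genes stands beside the same share of all coding genes, and no test was made. Pileup intervals are exact Poisson 95% intervals, and fold intervals are exact binomial ones. The listed genes and the other lists were chosen with earlier results of these data known. The genes named follow a rule: all with a Zmiz1 peak within 50 kb, the 5 highest and 5 lowest Rbpj folds, those without an Rbpj peak or an active mark, and others by ranges. The alternatives were a stricter p, no high-input peaks, other windows, nearest gene only, and starts in place of span ends.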

Additional observations from a re-analysis of the deposited data

How the results depend on the processing

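At p 1e-10 in place of 1e-05 the genes with an HA-Zmiz1 peak fell from 7 to 2 within 5 kb and from 12 to 5 within 50 kb. Counting a peak only for its nearest gene gave 6 within 50 kb. The 1 gene with Flag-Zmiz1 within 50 kb became 0 at p 1e-10, with the nearest gene only, and with a window of 20 kb. The 6 genes with H3K4me1 over an end became 2 with the upper 50% of segments by fold, 35 within 1 kb of an end, and 2 over the start of the 28 genes with one. The causes were not tested. The other 44 recomputed counts stayed within 1.5 times, but many of them were 0 to begin with. Those of ICN1, and of Flag-Zmiz1 within 5 kb, could only stay 0, because each alternative removed peaks or narrowed the window. The count of 0 for the library labelled H3K27ac also stayed 0. Rbpj within 5 kb was lowest at 24, at p 1e-10. With the nearest gene only, HA-Zmiz1 within 5 kb was at 6 genes in place of 7. No paired analysis was possible because each target had 1 library per line. Pileups of 6 to 26 tags for HA-Zmiz1 and 8 to 32 for Rbpj within 5 kb limit the ranking of genes by fold, and unlisted sites cannot be told apart from sites under the threshold.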
